A study of Mus musculus with 34 samples.

Results

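The genes described here are 7 chemokine ligands (Ccl2, Ccl7, Cxcl1, Cxcl5, Cxcl12, Cxcl16 and Cx3cl1), the macrophage growth factor Csf1 and the atypical chemokine receptor Ackr3. These 9 gene names were taken by symbol from the 55341 in the count tables of all 34 libraries, of which 34707 had a read in any library. The genes were chosen by their measured responses in these same libraries, in particular that Ccl2 and Ccl7 were higher after dexamethasone in Y551A-Dim cells and not in WT cells. The dexamethasone responses of WT and Y551A-Dim, and the difference between them, are therefore given as descriptions without a test for all 9 genes. Every other comparison that holds WT or Y551A-Dim libraries is described without a test for Ccl2 and Ccl7 and tested for the rest. Differences in response from WT or Y551A-Dim hold a response used in that choice, so their p-values are not independent of it.

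The cells are mouse mammary adenocarcinoma cells of the D4-GFP-mGR lines, which express the mouse glucocorticoid receptor (GR, gene Nr3c1) fused to green fluorescent protein. The labels name 5 receptor forms (WT, D647V, D647V-tetra, Y551A and Y551A-Dim) with 1 cell line for each, so that a receptor form and its line cannot be told apart. Y551A and D647V are substitutions named in the usual way, while Dim and tetra are not explained in the labels. The D4 lines are known as derivatives of a receptor-knockout clone, which the labels do not state. All cells were kept in medium with 10% charcoal-stripped serum and 5 µg/ml tetracycline. Treatment lasted 2 h, with 100 nM of the synthetic glucocorticoid dexamethasone (Dex) or with ethanol (EtOH) alone. In set 1 each of WT, Y551A and Y551A-Dim had 3 libraries in EtOH and 3 in Dex. Set 2 was made up of D647V and D647V-tetra, also with 3 each, and a second WT series with 2 each. The depth was 44998213 to 70124595 counted reads per library in set 1, and 60277930 to 79776573 in set 2. The labels mention 2 library kits without assigning them, so the sets were fitted apart. They do not say whether replicates were separate cultures, and if they were not, the p-values measure only technical spread.

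Chemokines are small secreted proteins that steer the movement of leukocytes through G-protein-coupled receptors. They are classed by the spacing of the cysteines near their amino end into CC, CXC and CX3C types. CCL2 and CCL7 draw monocytes through CCR2, CXCL1 and CXCL5 draw neutrophils through CXCR2, and CXCL12 acts on CXCR4. CXCL16 and CX3CL1 are made as membrane-bound proteins that can be shed, and their receptors are CXCR6 and CX3CR1. CSF1 keeps macrophages alive through its receptor CSF1R, and ACKR3 takes up CXCL12 without classical G-protein signalling. Glucocorticoids lower many inflammatory cytokine transcripts, in part through opposition to the transcription factors NF-kB and AP-1 and in part through proteins that destabilise messenger RNA.

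The coding stretches around the first cysteines are shown for 5 of the ligands because reads can be assigned to these related genes only where their sequences differ. They were read from the GENCODE vM21 transcripts, 5′ to 3′ on the coding strand, with the codons of the class-defining cysteines in capitals.
Ccl2: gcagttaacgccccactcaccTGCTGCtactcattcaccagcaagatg
Ccl7: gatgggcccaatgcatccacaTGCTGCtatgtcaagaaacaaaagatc
Cxcl1: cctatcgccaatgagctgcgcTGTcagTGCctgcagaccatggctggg
Cxcl5: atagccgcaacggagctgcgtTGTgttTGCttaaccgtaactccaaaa
Cx3cl1: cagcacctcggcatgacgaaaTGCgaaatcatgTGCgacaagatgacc
Ccl2 (mm10 chr11:82035571-82037453, plus strand) and Ccl7 (chr11:82045712-82047525, plus strand) are neighbouring protein-coding genes, and neither shares an exon with another gene on its strand. Their coding sequences were 46.2% identical, and the longest run shared by the transcripts was 23 bases, against reads of 100 bases. Cxcl1 (chr5:90891241-90893115, plus strand) and Cxcl5 (chr5:90759360-90761624, plus strand) shared no run longer than 11 bases. Of the 16 pairs compared, within Ccl2, Ccl7, Ccl8, Ccl11 and Ccl12 and within Cxcl1, Cxcl2, Cxcl3 and Cxcl5, the pair of Cxcl2 and Cxcl3 alone shared a run longer than a read, of 110 bases. Other ligands were not compared in this way. Csf1 lies at chr3:107741048-107760469 on the minus strand, Cx3cl1 at chr8:94772009-94782427, Cxcl12 at chr6:117168535-117181367 and Ackr3 at chr1:90203980-90216751, all 3 on the plus strand.

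RefSeq promoter windows (GRCm38.p6, from 250 bases before to 50 after the start site) were at hand for 5 of the 9 genes, Ackr3, Csf1, Cxcl1, Cxcl12 and Cx3cl1. They were searched on both strands for an NF-kB motif (GGGA and TTCC with any 2 bases between), for the palindrome bound by GR (GNACA and TGTNC with any 3 bases between), for the AP-1 motif TGACTCA or its reverse TGAGTCA, and for the GR half-site AGAACA. Cxcl1 and Csf1 held the NF-kB motif, which 1.47% of 32841 promoter windows held. The stretch from -170 to -51 relative to the start site is shown for both, with the NF-kB motif in capitals. In Cxcl1 the capitals cover 2 overlapping matches.
Cxcl1: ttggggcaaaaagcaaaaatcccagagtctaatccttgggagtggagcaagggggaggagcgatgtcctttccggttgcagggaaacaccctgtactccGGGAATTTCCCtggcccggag
Csf1: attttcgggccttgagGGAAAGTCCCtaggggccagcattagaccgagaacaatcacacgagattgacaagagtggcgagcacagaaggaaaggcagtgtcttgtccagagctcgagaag
The Cxcl1 stretch is chr5:90891075-90891194 on the plus strand and the Csf1 stretch chr3:107760520-107760639 on the minus strand. None of the 5 windows held the GR palindrome, which 0.475% of all windows held, or the AP-1 motif, which 5.2% held. Csf1 held AGAACA once, starting 124 bases before its start site, and 19% of all windows held it. A match describes these letters only, and binding was not measured.

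Of the 9 genes, 8 passed edgeR's filter on low counts in both sets. The exception was Cxcl16, with no read in 33 of 34 libraries and 1 read in a D647V Dex library. If reads were independent, a count of 0 would allow up to 3 reads, or 0.0376 to 0.0667 CPM at these depths, with counting error only. CPM are counts scaled to library size. Both mates of a pair were counted, so reads were not independent and the limit is higher than that. Cxcl16 was below detection. Levels were compared between genes as CPM per kilobase of exon. In WT cells of set 1 under EtOH, Csf1 stood at 76.6 ± 1.51 (SD, n = 3), well above Ccl7 at 13.1 ± 1.15 and Ccl2 at 12.3 ± 0.352, which did not differ beyond their spread. Cx3cl1 (9.23 ± 0.29) and Ackr3 (8.03 ± 0.404) came next, then Cxcl1 (3.71 ± 0.266), Cxcl12 (2 ± 0.0721) and Cxcl5 (1.34 ± 0.0656).

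**Figure D1:**
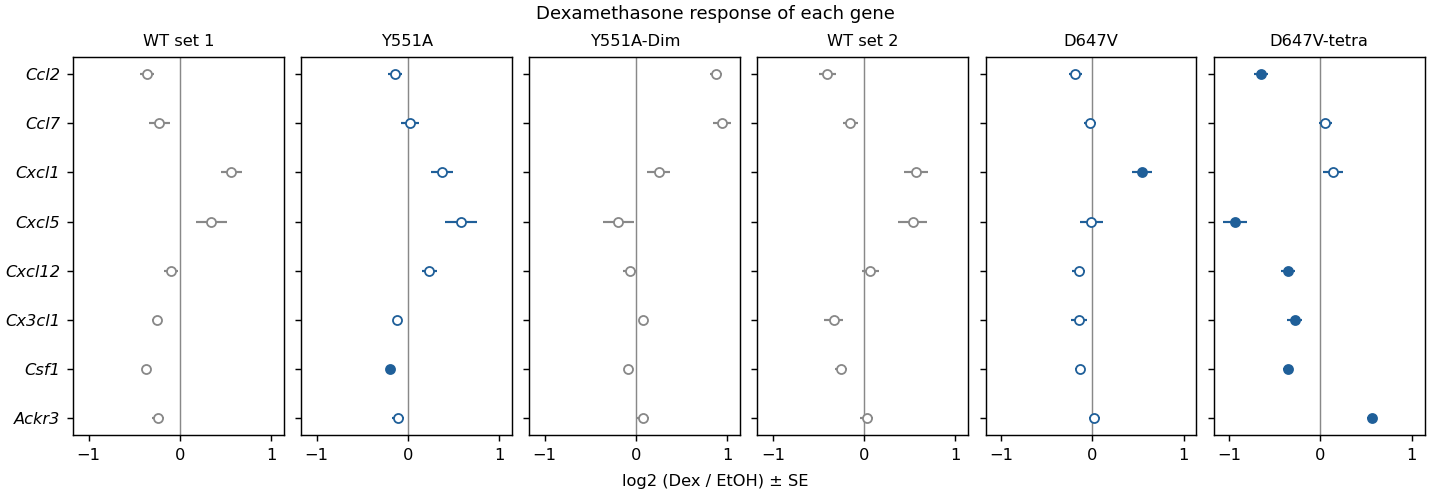
Log2 change after 2 h of Dex against EtOH for the 8 detected genes in each receptor form, with SE as bars (n = 3 per group, n = 2 in WT set 2). Grey open points were not tested, blue open points were tested and not called, and blue filled points were called at an adjusted p below 0.05. Ccl2 and Ccl7 lie far to the right in Y551A-Dim, and 6 genes are filled in D647V-tetra.

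Ccl2, the monocyte attractant, was lower with Dex in WT cells and higher with Dex in Y551A-Dim cells. Its level in WT of set 1 was 14.4, 13.7 and 13.8 CPM in the 3 EtOH libraries and 10.8, 10.6 and 11.2 CPM in the 3 Dex libraries. Every Dex library lay below every EtOH library, and the log2 change was -0.36 ± 0.077 (SE). The WT levels in set 2 were 33.7 and 27.1 CPM in EtOH and 23.0 and 23.0 CPM in Dex, again without overlap, with a log2 change of -0.40 ± 0.093. That value rested on few libraries, being -0.24 without EtOH replicate 1 and -0.55 without EtOH replicate 2. In Y551A-Dim the levels were 19.1, 18.1 and 22.1 CPM in EtOH and 40.0, 35.2 and 33.7 CPM in Dex. Here every Dex library lay above every EtOH library, by 0.87 ± 0.069 on the log2 scale or 1.83-fold. The response in Y551A-Dim exceeded that in WT of set 1 by 1.24 ± 0.104 log2 and that in Y551A by 1.01 ± 0.102. In such bulk samples fewer cells making a transcript and less transcript per cell cannot be told apart.

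Ccl7, which shares the receptor CCR2 with Ccl2, showed the same contrast between Y551A-Dim and WT, with more spread. In Y551A-Dim it stood at 22.5, 19.9 and 24.7 CPM in EtOH and at 52.1, 40.2 and 36.5 CPM in Dex. All Dex libraries were above all EtOH libraries, with a log2 change of 0.94 ± 0.096 or 1.92-fold. Leaving out 1 library at a time gave 0.78 to 1.05. WT levels in set 1 were 11.2, 10.7 and 9.43 CPM in EtOH and 9.67, 8.02 and 9.16 CPM in Dex, and the groups overlapped. The log2 change in WT was -0.23 ± 0.114 in set 1 and -0.15 ± 0.084 in set 2. With 1 library left out these ran from -0.285 to -0.144 and from -0.29 to -0.01. The response in Y551A-Dim exceeded that in WT of set 1 by 1.17 ± 0.149 log2. Over all genes, 1.09% were called in the Y551A-Dim response, 3.4% in the WT response of set 1, 1.72% in that of set 2 and 1.47% in the difference between Y551A-Dim and WT. Of the 8 genes, 2, 5, 2 and 4 were past the same threshold there. The genes were chosen by these same responses, so the counts are a description and cannot be weighed against the shares.

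Ccl2 and Ccl7 did not respond detectably in Y551A cells. Ccl2 was 15.4, 17.0 and 16.7 CPM in EtOH and 15.6, 14.1 and 14.7 CPM in Dex, a log2 change of -0.14 ± 0.075 (edgeR adjusted p = 0.639, 95% interval -0.30 to 0.02). Ccl7 was 25.6, 25.1 and 23.5 CPM in EtOH and 24.4, 23.7 and 27.2 CPM in Dex, a change of 0.02 ± 0.099 (adjusted p = 0.984, interval -0.19 to 0.24). The groups overlapped for both genes. Both intervals lie below the changes seen in Y551A-Dim. Those changes were part of how these genes were chosen, so this is a description without a test.

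In D647V-tetra the 2 neighbours parted. Ccl2 fell from 39.6, 35.9 and 40.8 CPM in EtOH to 24.8, 26.2 and 23.2 CPM in Dex, by 0.65 ± 0.075 log2 (edgeR adjusted p = 1.79e-05), lower in 3 of 3 Dex libraries. Ccl7 was 48.6, 43.5 and 47.7 CPM in EtOH and 49.6, 49.0 and 46.7 CPM in Dex, a change of 0.06 ± 0.067 (adjusted p = 0.59, interval -0.09 to 0.21). In D647V, Ccl2 was 37.8, 34.7 and 38.6 CPM in EtOH and 33.4, 33.3 and 31.2 CPM in Dex, without overlap, and its change of -0.18 ± 0.074 was not called (adjusted p = 0.575). The Ccl7 change in D647V was -0.03 ± 0.067 (adjusted p = 0.984). The Ccl2 response was lower in D647V-tetra than in D647V by 0.46 ± 0.105 log2 (adjusted p = 0.0468), a call close to the threshold that was lost in 12 of 18 other settings, 9 of them with 1 library left out. Without D647V-tetra EtOH replicate 3 or without D647V-tetra Dex replicate 3, for example, its adjusted p was 0.152, with values of -0.43 and -0.42.

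**Figure D2:**
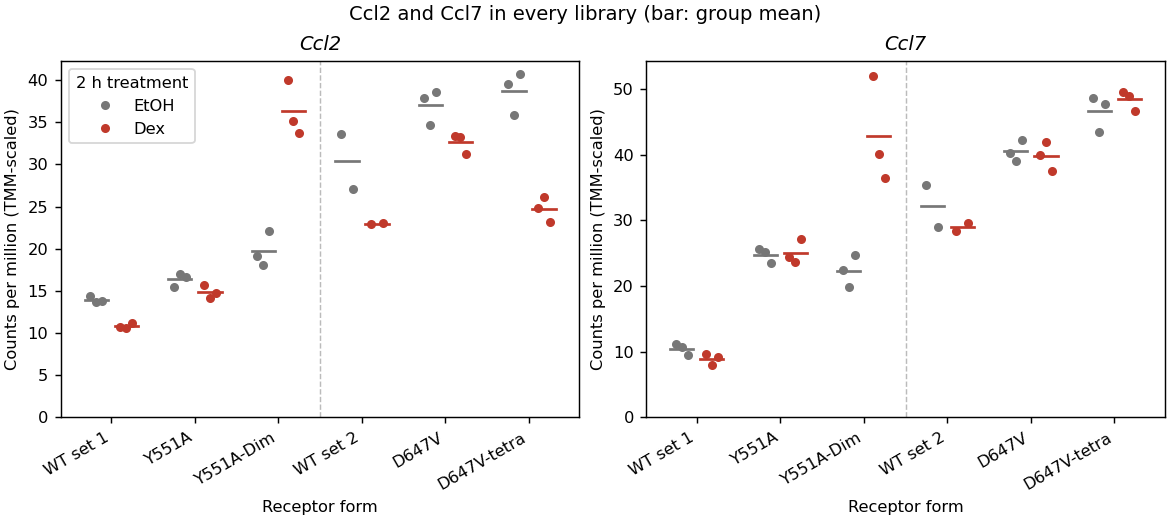
Ccl2 (left) and Ccl7 (right) in TMM-scaled CPM, a point per library and a bar at each group mean (EtOH grey, Dex red, 2 or 3 libraries per group). Set 1 is left of the dashed line and set 2 right of it. Dex points stand above EtOH points in Y551A-Dim for both genes, and below them in D647V-tetra for Ccl2, at 23.2 to 26.2 against 35.9 to 40.8 CPM.

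The ratio of Ccl2 to Ccl7, each per kilobase of exon, needs no scaling between libraries. In Y551A-Dim it was 0.623 ± 0.0219 in EtOH and 0.602 ± 0.0563 in Dex (SD, n = 3), so both genes were higher in nearly equal proportion. In D647V-tetra it was 0.585 ± 0.0145 in EtOH and 0.359 ± 0.0149 in Dex, with ranges of 0.573 to 0.601 and 0.349 to 0.376. It was also lower with Dex, without overlap, in WT of set 2 (0.656 to 0.670 in EtOH and 0.547 to 0.570 in Dex) and in D647V (0.626 to 0.661 and 0.557 to 0.588). Under EtOH the ratio ran from 0.944 ± 0.0760 in WT of set 1 to 0.466 ± 0.0386 in Y551A. It was 0.663 ± 0.0102 in WT of set 2 (SD, n = 2), so the 2 WT series differed as well. The ratio was not tested. Both genes were chosen with their responses known, so the p-values given for them above are not independent of that choice.

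**Figure D3:**
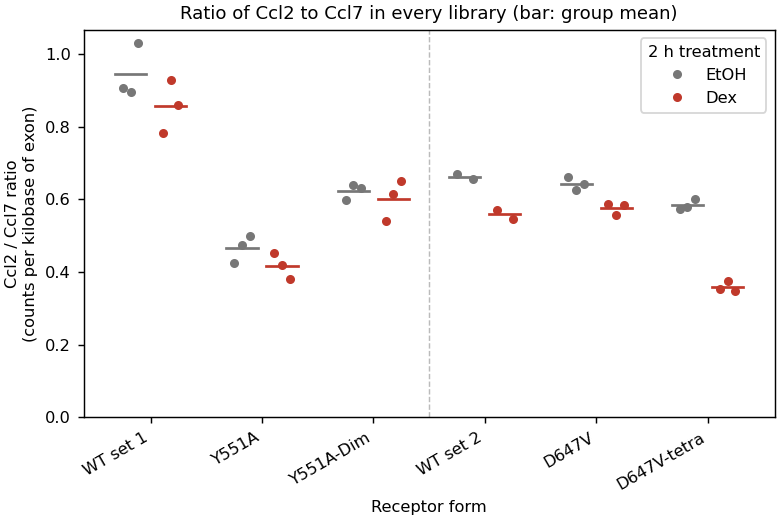
Ratio of Ccl2 to Ccl7 counts per kilobase of exon in every library, with a bar at each group mean (EtOH grey, Dex red, 2 or 3 libraries per group; dashed line between the sets). The Dex libraries of D647V-tetra sit at 0.349 to 0.376, below the other groups of set 2.

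Cxcl1, a neutrophil attractant, was higher with Dex in most lines. It stood in WT of set 1 at 7.53, 6.77 and 6.58 CPM in EtOH and at 11.8, 8.60 and 10.4 CPM in Dex, a log2 change of 0.56 ± 0.117. For WT in set 2 it was 9.88 and 7.13 CPM in EtOH and 13.6 and 11.6 CPM in Dex, a change of 0.57 ± 0.135. The set 2 value was 0.82 without EtOH replicate 1 and 0.35 without EtOH replicate 2. The Dex libraries lay above the EtOH libraries in both sets. In D647V, Cxcl1 rose from 7.27, 6.99 and 8.38 CPM to 11.6, 10.2 and 11.2 CPM, by 0.54 ± 0.11 log2 (edgeR adjusted p = 0.0177), higher in 3 of 3 Dex libraries. It was the only call among the 8 genes in D647V, where 0.941% of all genes were called. The call was lost without D647V EtOH replicate 1 (0.52, adjusted p = 0.0812) or 2 (0.50, 0.135), and without D647V Dex replicate 1 (0.51, 0.078) or 3 (0.53, 0.088). In Y551A the change was 0.37 ± 0.121 (adjusted p = 0.18) and in D647V-tetra 0.14 ± 0.110 (adjusted p = 0.388, interval -0.10 to 0.39), neither called. In Y551A-Dim it was 0.25 ± 0.126, with overlapping groups and values of 0.145 to 0.352 with 1 library left out. No difference in the Cxcl1 response passed the test, the D647V-tetra response being 0.40 ± 0.156 below that of D647V (adjusted p = 0.264) and 0.43 ± 0.174 below that of WT (adjusted p = 0.138). The difference from WT rested on the WT EtOH libraries of set 2. It was -0.69 without replicate 1 (adjusted p = 0.0245) and -0.22, not called, without replicate 2.

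Cxcl5, which also acts through CXCR2, went the other way in D647V-tetra. It fell there from 5.05, 4.28 and 4.21 CPM in EtOH to 2.01, 2.57 and 2.5 CPM in Dex, by 0.93 ± 0.131 log2 (adjusted p = 1.33e-04), lower in 3 of 3 Dex libraries. The WT cells of set 2 had 3.84 and 3.35 CPM in EtOH and 5.72 and 4.65 CPM in Dex, a change of 0.53 ± 0.156. The Dex libraries of WT lay above its EtOH libraries, and those of D647V-tetra below. In D647V the groups overlapped, at 4.34, 4.51 and 4.78 CPM in EtOH and 4.75, 4.51 and 4.26 CPM in Dex, with a change of -0.01 ± 0.126 (adjusted p = 0.996). The response in D647V-tetra was lower than that in WT by 1.46 ± 0.204 log2 (adjusted p = 0.00135), called in all 16 other settings. It was lower than that in D647V by 0.92 ± 0.181 (adjusted p = 0.0254), a call lost in 8 of 18 other settings, with adjusted p of up to 0.0758 and values of -0.99 to -0.82. The difference from WT holds the WT response used in choosing the genes. Its p-value is not independent of that choice, and the other settings reuse the same libraries.

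In set 1, Cxcl5 rested on 106 to 201 reads per library. Its change was 0.35 ± 0.173 in WT (0.16 to 0.49 with 1 library left out), -0.19 ± 0.174 in Y551A-Dim and 0.58 ± 0.174 in Y551A. In Y551A it was 2.83, 2.10 and 2.19 CPM in EtOH and 3.49, 3.50 and 3.68 CPM in Dex, without overlap, and was not called (adjusted p = 0.107). It was called there by DESeq2 (adjusted p = 0.0421) and without the low-count filter (adjusted p = 0.044).

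Cxcl12, the ligand of CXCR4 and ACKR3, fell with Dex in D647V-tetra. It went from 12.5, 13.2 and 12.1 CPM in EtOH to 9.75, 9.94 and 9.95 CPM in Dex, by 0.35 ± 0.072 log2 (adjusted p = 0.00327), without overlap. The tested changes in Y551A (0.23 ± 0.081, adjusted p = 0.248) and D647V (-0.15 ± 0.071, adjusted p = 0.709) were not called. Those in WT were -0.10 ± 0.073 in set 1 and 0.07 ± 0.092 in set 2, and that in Y551A-Dim was -0.06 ± 0.076. The D647V-tetra response was below that of WT by 0.42 ± 0.117, just outside the threshold (adjusted p = 0.0504, interval -0.68 to -0.16). DESeq2 called it (adjusted p = 0.0146), as did edgeR with DESeq2's size factors (0.0456) or without D647V-tetra Dex replicate 2 (0.0469).

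Cx3cl1, whose product is a membrane-bound ligand of CX3CR1, was lower with Dex in every line but Y551A-Dim. In WT of set 1 it stood at 37.6, 35.5 and 35.7 CPM in EtOH and at 30.1, 30.4 and 30.7 CPM in Dex, a change of -0.26 ± 0.051. In Y551A-Dim it was 32.3, 30.003 and 28.9 CPM in EtOH and 32.9, 32.0 and 31.6 CPM in Dex, with overlap and a change of 0.08 ± 0.051. In D647V-tetra the mean went from 27.8 ± 3.77 to 22.9 ± 1.49 CPM (SD), by -0.28 ± 0.086 log2 (adjusted p = 0.0316). The groups overlapped there, at 23.6, 29.2 and 30.7 CPM in EtOH and 24.2, 21.3 and 23.3 CPM in Dex. That call was lost without D647V-tetra EtOH replicate 2 (-0.25, adjusted p = 0.0735) or 3 (-0.20, 0.148), without Dex replicate 2 (-0.23, 0.0895) or 3 (-0.29, 0.0831), with total count scaling (0.0501) and with only the 2 groups fitted (0.0744). The changes in Y551A (-0.12 ± 0.051, adjusted p = 0.463) and D647V (-0.15 ± 0.084, adjusted p = 0.8) were not called.

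Csf1 was the most abundant of the 9 genes, with at least 12850 reads in each library. Its mean was lower with Dex in every line, and the groups overlapped in Y551A-Dim alone. The levels in WT of set 1 were 414, 398 and 402 CPM in EtOH and 309, 312 and 314 CPM in Dex, a change of -0.38 ± 0.036 with no overlap. Those of set 2 were 403 and 441 CPM in EtOH and 378 and 332 CPM in Dex, a change of -0.25 ± 0.066 that ran from -0.345 to -0.161 with 1 library left out. In Y551A, Csf1 fell from 323, 320.7 and 334 CPM to 289, 284 and 277 CPM, by 0.20 ± 0.036 log2 (adjusted p = 9.03e-04), lower in 3 of 3 Dex libraries. It was the only call among the 8 genes in Y551A, where 1.84% of all genes were called. In D647V-tetra it fell from 371, 414 and 412 CPM to 311, 311 and 317 CPM, by 0.35 ± 0.054 (adjusted p = 3.22e-04), again without overlap. Both falls were called in each of 12 other settings. In D647V the levels were 475, 479 and 489.9 CPM in EtOH and 444, 433 and 435 CPM in Dex, without overlap, and the change of -0.14 ± 0.054 was not called (adjusted p = 0.529). In Y551A-Dim the groups overlapped, at 341, 356 and 330.5 CPM in EtOH and 319.6, 312 and 336 CPM in Dex, with a change of -0.09 ± 0.036. The Csf1 response in Y551A differed from that in WT by 0.18 ± 0.051 (adjusted p = 0.344 by edgeR and 0.0304 by DESeq2).

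Ackr3, the scavenging receptor for CXCL12, rose with Dex in D647V-tetra. It went from 26.5, 24.6 and 25.9 CPM in EtOH to 37.1, 39.9 and 36.9 CPM in Dex, by 0.57 ± 0.057 log2 or 1.48-fold (adjusted p = 3.96e-06), higher in 3 of 3 Dex libraries. In D647V it was 26.4, 26.6 and 28.6 CPM in EtOH and 27.4, 28.0 and 27.6 CPM in Dex, with overlap and a change of 0.02 ± 0.057 (adjusted p = 0.981, interval -0.10 to 0.15). The WT change in set 2 was 0.03 ± 0.072, also with overlap. The D647V-tetra response exceeded that of D647V by 0.54 ± 0.081 (adjusted p = 0.00252) and that of WT by 0.54 ± 0.091 (adjusted p = 0.0048). These calls held in all other settings, 18 and 16 of them. The difference from WT holds a WT response used in choosing the genes, so its p-value is not independent of that choice. In set 1, Ackr3 in WT stood at 25.8, 26.5 and 28.4 CPM in EtOH and at 21.7, 24.5 and 22.2 CPM in Dex, a change of -0.24 ± 0.065. In Y551A the change was -0.11 ± 0.065 (adjusted p = 0.688) and in Y551A-Dim 0.08 ± 0.062, both with overlapping groups.

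**Figure D4:**
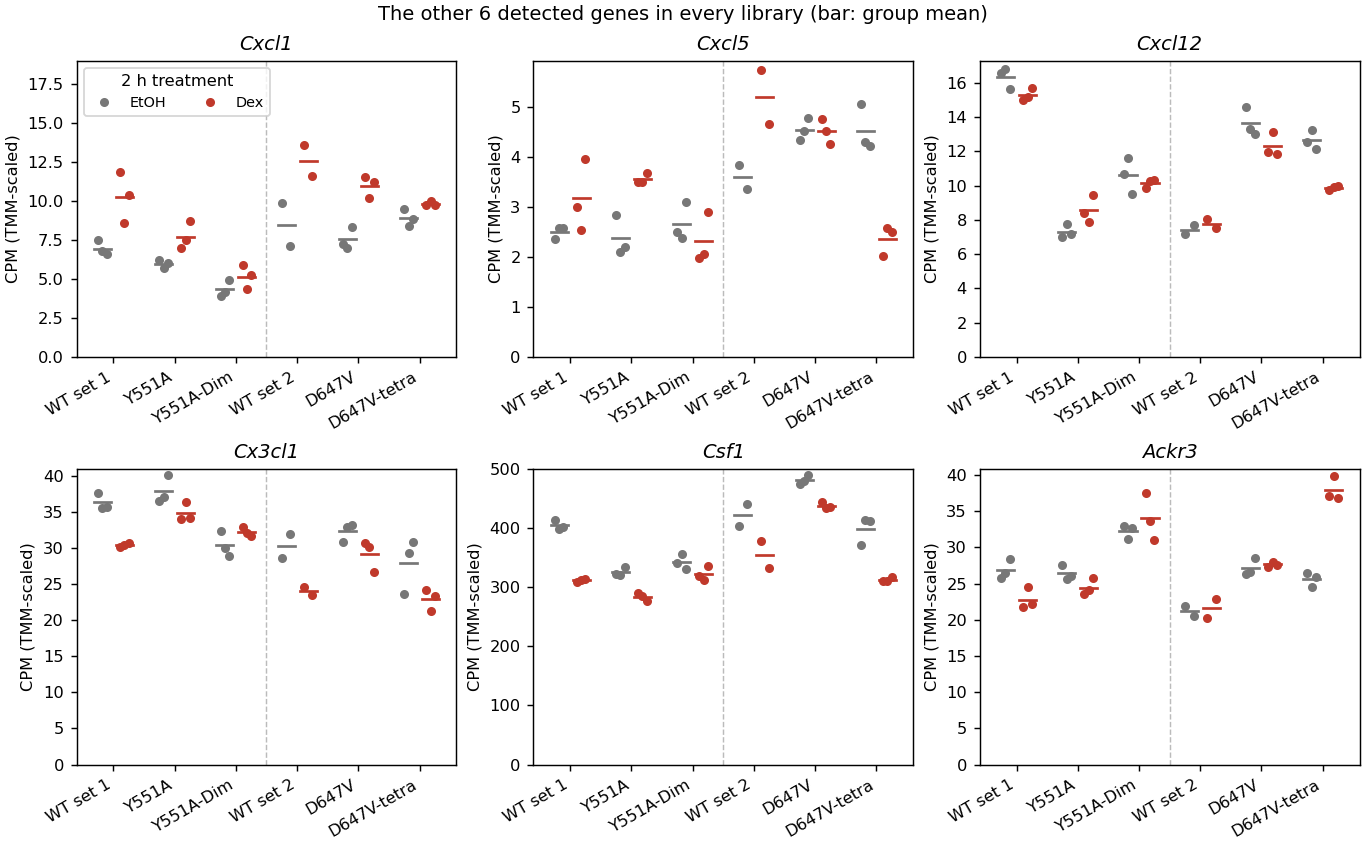
The other 6 detected genes in TMM-scaled CPM, a point per library and a bar at each group mean (EtOH grey, Dex red, 2 or 3 libraries per group; dashed line between the sets). In D647V-tetra, Ackr3 stands at 36.9 to 39.9 CPM in Dex above 24.6 to 26.5 CPM in EtOH, while Cxcl5 stands at 2.01 to 2.57 below 4.21 to 5.05 CPM.

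In all, 6 of the 8 genes were called in D647V-tetra, where 19.2% of all genes were called. The 5 lower genes compare with 7.89% of all genes called lower, and Ackr3 with 11.3% called higher. EtOH replicate 1 of D647V-tetra stood apart from replicates 2 and 3, with a chi-square per gene between their counts of 58.4 and 63.7. Replicates 2 and 3 differed by 14.2, and 63.7 was the highest of 32 replicate pairs. With 1 library left out, 5 to 6 of the 8 genes were called in the D647V-tetra response. Of the differences in response, 3 of 8 tested genes were called between D647V-tetra and D647V (0.873% of all genes) and 2 of 6 between D647V-tetra and WT (4.41%). None of 6 was called by edgeR between Y551A and WT (0.18% of all genes), where 2 had an unadjusted p under 0.05 and DESeq2 called 1. None of 6 was called between Y551A-Dim and Y551A (0.558%), where 5 had an unadjusted p under 0.05 and DESeq2 called 0. None of 6 was called between D647V and WT (0.188%), where 1 had an unadjusted p under 0.05 and DESeq2 called 0. Differences measured against WT share the WT libraries of their set and are not independent of each other. The genes were chosen with earlier results of these libraries known. Every count of called genes set against a share of all genes, here and under EtOH, may follow in part from that choice.

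The lines also differed before any hormone. In set 1 under EtOH, Cxcl12 was lower in Y551A than in WT by 1.16 ± 0.077 log2 (adjusted p = 2.87e-12), at 7.30 ± 0.397 against 16.3 ± 0.590 CPM (SD, n = 3). It was lower in Y551A-Dim than in WT by 0.62 ± 0.074 (adjusted p = 6.99e-07). In set 2 it was higher than in WT by 0.87 ± 0.083 in D647V (adjusted p = 8.39e-06) and by 0.76 ± 0.083 in D647V-tetra (adjusted p = 1.93e-05). These 4 calls held in every other setting, 12 for each in set 1 and 11 in set 2. WT itself had 7.44 ± 0.377 CPM of Cxcl12 in set 2, so that the 2 WT series differed in this gene across sets that were not compared by a test.

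Markers of other cell types differed between the same lines under EtOH. The summed level of 4 basal epithelial markers was 18.8 to 20.0 CPM in Y551A, 7.92 to 8.92 CPM in Y551A-Dim and 4.98 to 5.58 CPM in WT of set 1. That of 4 endothelial markers was 2.95 to 3.81, 2.53 to 2.86 and 7.46 to 7.83 CPM in these lines. In set 2 the basal sum was 3.27 to 3.798 CPM in D647V, 3.74 to 4.34 CPM in D647V-tetra and 8.14 to 8.30 CPM in WT, and the endothelial sum 2.11 to 2.74, 2.09 to 2.38 and 6.07 to 6.58 CPM. Only 2 genes of each list passed the filter, Krt14 and Trp63, and Cdh5 and Pecam1, while the defining markers Krt5 and Kdr had at most 6 and 4 reads in a library. In WT of set 2 the endothelial sum was 9.05 to 9.36 CPM under Dex. The part of these markers in the differences between lines was not tested.

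Ackr3 was higher than in WT under EtOH by 0.26 ± 0.063 log2 in Y551A-Dim (adjusted p = 0.00298), 0.36 ± 0.065 in D647V (adjusted p = 0.0024) and 0.28 ± 0.065 in D647V-tetra (adjusted p = 0.00647). The D647V-tetra call was lost without WT EtOH replicate 2 of set 2 (0.24, adjusted p = 0.0934) and with only those groups fitted (0.28, 0.0589). Csf1 was lower than in WT by 0.31 ± 0.036 in Y551A (adjusted p = 5.93e-08) and by 0.24 ± 0.036 in Y551A-Dim (adjusted p = 1.64e-05). Cxcl1 was lower in Y551A-Dim than in WT by 0.68 ± 0.123 (adjusted p = 2.09e-04) and than in Y551A by 0.46 ± 0.126 (adjusted p = 0.00651). Cx3cl1 was lower in Y551A-Dim than in WT by 0.25 ± 0.051 (adjusted p = 5.5e-04). Of the 6 genes tested against WT, 2 were called in Y551A, where 42.5% of all genes were, 5 in Y551A-Dim (23.3%), 2 in D647V (7.36%) and 2 in D647V-tetra (18.7%). Between Y551A-Dim and Y551A 4 of 6 were called (29%), among them Cxcl12, higher by 0.54 ± 0.079. Between D647V-tetra and D647V, where 4.53% of all genes were called, the only call among 8 was Csf1, lower by 0.27 ± 0.054 (adjusted p = 0.00952). That call was lost without D647V EtOH replicate 2 (-0.25, adjusted p = 0.061), without D647V-tetra EtOH replicate 1 (-0.22, 0.0517) and with only those groups fitted (0.0504).

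Ccl7 under EtOH was higher than in WT of set 1 by 1.24 ± 0.104 log2 in Y551A and by 1.09 ± 0.104 in Y551A-Dim. For Ccl2 the same differences were 0.23 ± 0.074 and 0.50 ± 0.073. WT itself had 9.43 to 11.2 CPM of Ccl7 in set 1 and 29.1 to 35.3 CPM in set 2. The set 2 levels lay above those of Y551A (23.5 to 25.6 CPM) and Y551A-Dim (19.9 to 24.7 CPM). For Ccl2, WT had 13.7 to 14.4 CPM in set 1 and 27.1 to 33.7 CPM in set 2. The sets were not compared by a test. In set 2, D647V exceeded WT by 0.33 ± 0.076 in Ccl7 and 0.29 ± 0.084 in Ccl2, and D647V-tetra exceeded it by 0.53 ± 0.077 and 0.35 ± 0.084. Without WT EtOH replicate 2 of set 2, the D647V values were 0.20 for Ccl7 and 0.14 for Ccl2, and the D647V-tetra value for Ccl2 was 0.21. Without WT EtOH replicate 1 these 3 values were 0.48, 0.45 and 0.52. These values carry no test.

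**Figure D5:**
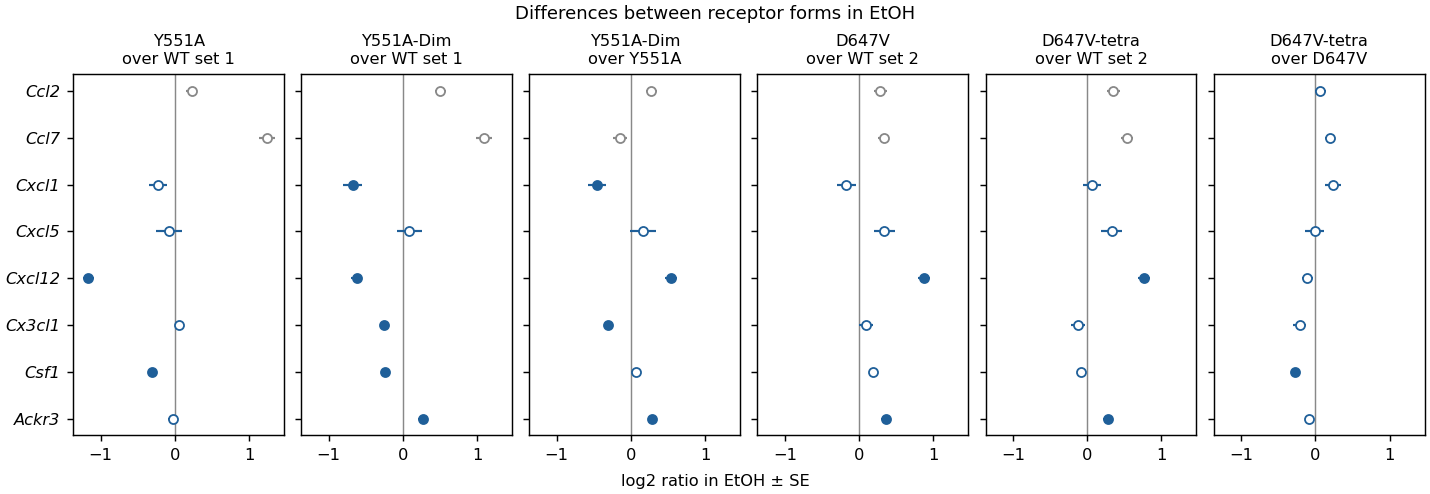
Log2 ratio between receptor forms under EtOH for the 8 detected genes, with SE as bars (n = 3 per group, n = 2 in WT set 2). Grey open points were not tested, blue open points were tested and not called, and blue filled points were called at an adjusted p below 0.05. Cxcl12 lies at -1.16 in Y551A over WT and at 0.87 in D647V over WT.

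Apart from Ackr3, the receptors for these ligands were nearly silent in the cells. Cxcr4 and Cxcr6 had no read in any library. Ccr2 had at most 2 reads in a library and Cxcr2 at most 4. The CSF1 receptor Csf1r reached 8 reads in set 1 and 18 in set 2, or 0.265 CPM. Of 22 chemokine receptors other than Ackr3, only Ccr10 and Cx3cr1 passed the filter, both below 0.41 CPM, and neither was called in any Dex response.

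Of 31 further chemokine ligands, 7 passed the filter in set 1 and 8 in set 2. None was called in 5 of the 6 Dex responses, and in D647V-tetra none rose and 2 fell, Cxcl3, a close relative of Cxcl1, and Cxcl10. Cxcl3 went from 3.87 ± 0.662 to 2.59 ± 0.0689 CPM (SD), by -0.58 ± 0.155 log2 (adjusted p = 0.0168), and its response was lower than that in WT by 0.95 ± 0.245 (adjusted p = 0.0386). Cxcl10, named after its values were seen, went from 0.471 ± 0.114 to 0.225 ± 0.0962 CPM (-1.05 ± 0.329, adjusted p = 0.0348). Reads from Cxcl3 and Cxcl2 can be confused over the run they share, although Cxcl2 had at most 14 reads in a library. Il34, which encodes the other ligand of CSF1R, rose in 3 of the 6 Dex responses. Its change was 0.42 ± 0.102 in WT of set 1 (adjusted p = 0.0125), 0.47 ± 0.098 in Y551A-Dim (adjusted p = 0.0119) and 0.40 ± 0.108 in D647V-tetra (adjusted p = 0.0181).

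Genes of the NF-kB pathway and its targets were read beside these ligands, 25 of 32 being tested. In WT of set 1, 5 fell and none rose, where 3.4% of all genes were called, with a median of -0.117 over the list against -0.013 over all genes. In WT of set 2, 2 fell (Irf1 and Ier3) and Tnfaip3 rose, where 1.72% of all genes were called, with a median of -0.039 against 0.002. Among the 5 that fell in WT of set 1, the interferon regulator Irf1 fell by 0.52 ± 0.050 log2. There the cyclooxygenase Ptgs2 fell by 0.49 ± 0.051 and the stress gene Ier3 by 0.55 ± 0.063. In Y551A, Ier3 and Irf1 fell, in D647V Ptgs2 and Irf1 fell, and in Y551A-Dim only Ptgs2 fell, by 0.25 ± 0.050 (adjusted p = 0.00865). In Y551A-Dim the responses of Ier3 and Irf1 were higher than in WT by 0.69 ± 0.089 and 0.45 ± 0.071 (adjusted p = 1.1e-05 and 2.04e-04). In D647V-tetra 6 fell and 4 rose, against 7.89% and 11.3% of all genes, the latter being Nfkbiz, Tnfaip3, Rel and Nfkbia, which encode regulators or subunits of NF-kB.

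Many chemokine transcripts are short-lived, and 12 genes for RNA-decay and AU-rich-element-binding proteins were all tested. In WT of set 1, where 3.4% of all genes were called, 4 rose and Zfp36l1 fell. The 4 were Zfp36l2 (1.03 ± 0.048 log2), Zfp36 (0.92 ± 0.095), N4bp1 (0.65 ± 0.045) and Zc3h12c (0.60 ± 0.062), which encode, in that order, 2 zinc-finger proteins that bind AU-rich elements and 2 proteins of the RNA-endonuclease kind. The same 4 rose in Y551A (1.84% of all genes called) and in WT of set 2 (1.72%), and 3 of them rose in D647V (0.941%). In D647V-tetra 7 genes rose, where 11.3% of all genes were called higher. In Y551A-Dim none was called, and the responses of Zfp36l2 (-0.91 ± 0.068), Zfp36 (-0.90 ± 0.138), N4bp1 (-0.51 ± 0.064) and Zc3h12c (-0.45 ± 0.089) were lower than in WT, with adjusted p between 4.76e-10 and 0.00376. In D647V-tetra the Zc3h12c response was higher than in D647V by 0.60 ± 0.066 (adjusted p = 1.05e-04), while that of Zfp36l2 was lower than in WT by 0.75 ± 0.092 (adjusted p = 4.84e-04). Of 10 genes for sheddases and their regulators, none was called in 5 of the 6 Dex responses, and in D647V-tetra only Bace1 rose, by 0.16 ± 0.044 (adjusted p = 0.021).

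The receptor transcript and markers of cell type were read beside these comparisons. Nr3c1 ran from 266 to 380.04 CPM in set 1 and from 234 to 341 CPM in set 2. Under EtOH it exceeded WT by 0.30 ± 0.031 log2 in Y551A and 0.15 ± 0.031 in Y551A-Dim, and D647V and D647V-tetra were lower than WT by 0.24 ± 0.045 and 0.37 ± 0.045. With Dex, Nr3c1 rose by 0.13 ± 0.031 in Y551A and by 0.20 ± 0.031 in Y551A-Dim, and fell by 0.13 ± 0.041 in D647V-tetra (adjusted p = 0.0206, 4.15e-04 and 0.0346). These counts cannot tell a receptor introduced into the line from an endogenous one. The luminal epithelial markers were at or near 0 against the label of mammary adenocarcinoma, with no Epcam read in any library and Krt8 below 0.8 CPM, and the fibroblast list was mixed. Of its 7 genes, Col1a2 stood at 1628 to 2741 CPM and Pdgfrb at 106 to 202 CPM, whereas Col1a1 reached at most 2.44 CPM, Dcn at most 10 reads and Thy1 at most 2 reads in a library. The summed level of 7 macrophage and leukocyte markers was 15.4 to 17.2 CPM in Y551A-Dim under EtOH and 18.3 to 25.5 CPM under Dex, so it moved with Ccl2 and Ccl7, and its part in their values was not tested. The list also holds Cd14, Cd68 and Lyz2. In set 1 Adgre1 was at 0 and Ptprc, Itgam and Csf1r reached at most 0.323, 0.104 and 0.152 CPM. In D647V-tetra the sum was 15.8 to 17.4 CPM under EtOH and 13.4 to 14.4 CPM under Dex.

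The genes whose log2 CPM followed each member most closely were looked up as a description, over libraries that share lines, treatments and scaling. Over the 18 libraries of set 1, Ccl2 was followed most closely by Socs3 (Pearson r = 0.88), Ccn4 (0.876) and Lyz2 (0.864), and Ccl7 by Ccn5 (0.963), Col12a1 (0.955) and Nqo1 (0.941). Csf1 was followed by Map3k14 (0.95), Irf1 (0.948) and Lrig1 (0.943). Cxcl12 was followed by Wars (0.98), Gpt2 (0.979) and Gars (0.979). Over the 16 libraries of set 2 the closest gene was Flcn for Ccl2 (0.919), Arl4c for Ccl7 (0.952), Fam110b for Csf1 (0.966) and Phf20 for Ackr3 (0.921), so that none of these repeated a gene named for the same member in set 1. Ccl2 and Ccl7 had r = 0.847 with each other in set 1 and 0.384 in set 2, and Cx3cl1 and Csf1 had r = 0.213 in set 1 and 0.918 in set 2.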

How the data were processed

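Total RNA of 34 libraries was sequenced by the authors as 100 bp paired reads. The authors deposited unnormalized read counts for each gene symbol, made per the file headers with featureCounts 2.0.3 on exons of GENCODE vM21, with reverse-stranded counting (option 2) and both mates counted. Per the submitters' processing notes, bcl2fastq 2.17, cutadapt and STAR were used, with mm10. A spike-in of 5% Drosophila cells, per the labels' protocols, was not used here.

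Libraries were assigned to 2 sets by the library numbers in their titles and by a word in the column headers that all 16 libraries of set 2 and 0 of set 1 carry. In R 4.3.3, each set was fitted with edgeR 4.0.16: filterByExpr (16140 and 17535 genes), TMM scaling, a mean per group and two-sided quasi-likelihood tests of 18 contrasts (12 and 10 residual degrees of freedom), with p-values adjusted by Benjamini-Hochberg across every gene tested in a contrast and called below 0.05. The SE is the log2 change divided by the root of F. CPM use TMM-scaled totals. The members, gene lists and named-gene rule (all members, up to 4 called genes per list, contrast and direction, and the 3 genes of highest correlation with each member, with a prior count of 2 and an average log2 CPM of at least 1) were chosen with earlier results of these data known. Other settings (DESeq2 1.42.0, RLE or total scaling, no filter, a replicate block, fewer groups, libraries left out) are given at the end.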

Additional observations from a re-analysis of the deposited data

Results flagged for a closer look

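The Cxcl5 response to Dex in D647V-tetra differed from that in WT of set 2 by -1.46 ± 0.204 log2 (edgeR adjusted p = 0.00135) and from that in D647V by -0.92 ± 0.181 (adjusted p = 0.0254), by tests of the difference itself. The Ackr3 response in D647V-tetra differed from that in WT by 0.54 ± 0.091 (adjusted p = 0.0048) and from that in D647V by 0.54 ± 0.081 (adjusted p = 0.00252). The Ccl2 response in D647V-tetra differed from that in D647V by -0.46 ± 0.105 (adjusted p = 0.0468), which rests close to the threshold. All of these genes were chosen with earlier results of these libraries known, so their p-values are not independent of that choice.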

How the results depend on the processing

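Counts of members past the threshold changed by more than 1.5 times, or to or from 0, in most kinds of setting. DESeq2 moved 4 such counts, no filter 3, fitting only the groups compared 3, and a replicate block and total count scaling 1 each. Further counts moved with 1 library left out. No called value changed sign. The counts cover all 8 detected members, also those given above without a test, so some exceed the counts of tested genes above. For the untested members, being past the threshold is a description and not a test. In the Y551A response the count was 3 without the low-count filter and 2 by DESeq2, against 1. In the WT response of set 2 it was 4 without the filter, 4 by DESeq2, 1 with total count scaling and 0 with only the WT groups fitted, against 2. Between D647V-tetra and D647V under EtOH it was 3 without the filter, 2 by DESeq2 and 0 with only those groups, against 1. Between D647V and WT under EtOH it was 2 with only those groups, against 4. DESeq2 called 1 member in the difference between Y551A and WT, against 0. With 1 library left out, the counts ran from 0 to 1 in the responses of D647V and of WT set 2, from 2 to 4 for D647V and for D647V-tetra against WT under EtOH, from 0 to 1 between D647V-tetra and D647V under EtOH, and in the differences of response from 1 to 3 between D647V-tetra and D647V and from 2 to 4 between D647V-tetra and WT. Where a WT group of set 2 was left with 1 library, that library was assumed to vary like the others. The cause of these changes was not tested.

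No pairing by replicate number was seen: 0 of 17 same-number correlations of deviations exceeded 0.1 (range -0.201 to 0.0816). With 2 libraries per group the deviations mirror each other, so the WT values of set 2 were both -0.194 and are not separate. Because deviations within such small groups are constrained, the check cannot exclude pairing. With a replicate block, 1 of 8 members was called in the difference between D647V-tetra and D647V, against 3, with adjusted p of 0.0731 for Ccl2 and 0.0573 for Cxcl5, and Cx3cl1 in D647V-tetra had 0.0548. Of 112 tested member values and counts of members, the block changed 4, and it moved 3 of 18 counts over all genes, given below. In WT of set 2 the crossed pairing, chosen after seeing the data, called 272 genes, as did the uncrossed block.

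Counts over all genes moved by more than 1.5 times as follows. Without the filter they were 491 against 176 (Y551A-Dim response), 583 against 302 (WT set 2), 380 against 165 (D647V), 109 against 29 (Y551A minus WT), 422 against 238 (Y551A-Dim minus WT), 250 against 90 (Y551A-Dim minus Y551A), 244 against 33 (D647V minus WT), 2424 against 774 (D647V-tetra minus WT), 936 against 153 (D647V-tetra minus D647V) and 1956 against 795 (the last pair under EtOH). DESeq2 gave 344, 62, 153, 64, 1774, 493 and 1444 for Y551A-Dim, Y551A minus WT, Y551A-Dim minus Y551A, D647V minus WT, D647V-tetra minus WT, D647V-tetra minus D647V and the last pair under EtOH. Fits of only the groups compared gave 864 against 549 (WT set 1), 46 (Y551A-Dim), 70 (Y551A minus WT), 457 (D647V-tetra minus WT), and under EtOH 761 against 1290 (D647V against WT), 1876 against 3277 (D647V-tetra against WT) and 235 (D647V-tetra against D647V). The block gave 431, 82 and 502 for D647V-tetra minus WT, D647V-tetra minus D647V and the latter under EtOH, and total scaling gave 76 for D647V-tetra minus D647V. With 1 library left out, counts that moved as far included 75 to 1643 (D647V-tetra minus WT), 49 to 271 (D647V-tetra minus D647V), 87 to 674 (Y551A-Dim response), 1344 to 4023 against 3367 (D647V-tetra response), and under EtOH 364 to 1057 (D647V against WT) and 188 to 1131 (D647V-tetra against D647V). Depth left Cxcl16 below detection, and Cxcl5 had 106 reads in its lowest library.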
